A study of Homo sapiens with 2 samples.

Results

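The genes described here are 10 targets of the transcription factor p53 that act in cell-cycle arrest and the stress response: BTG2, CCNG1, GADD45A, MDM2, PLK2, PLK3, SESN1, SESN2, TP53INP1 and ZMAT3. They were taken by name, out of 19974 protein-coding genes on chromosomes 1 to 22 and X, and every JUNB peak whose summit lay inside the gene or within 50 kb of it was counted. This gave 22 of 32550 peaks of the untreated library and 17 of 25739 peaks of the etoposide library. JUNB occupancy had been profiled by CUT&RUN, in which an antibody directs a nuclease to the protein on chromatin and the released fragments are sequenced, in IMR-90, an established line of human lung fibroblasts. The groups were 1 library from cells with no treatment and 1 library from cells given etoposide, a topoisomerase II poison that breaks DNA, with dose and time not given in the sources used here. Each condition was a single library, so differences between them have no replicate check and no test of the treatment was possible.

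p53 is held low in undamaged cells by MDM2, an E3 ubiquitin ligase that is itself a p53 target, and DNA damage lifts this block. Stabilised p53 then switches on genes that stop the cell cycle, slow growth signalling and act on RNA, among them the genes above. JUNB pairs with FOS proteins or other partners in the dimeric factor AP-1, which binds TGANTCA sites, many of them far from gene starts, and is active in fibroblasts. A JUNB peak near a gene is a place of occupancy and does not show that the gene is regulated from it, and expression was not measured here.

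An untreated summit lay within 50 kb of 9 of the 10 genes, 90.0% (95% exact binomial interval 55.5% to 99.7%), where 72.0% of all protein-coding genes had one. An etoposide summit lay within 50 kb of 8 of 10, 80% (44.4% to 97.5%), against 62.6% of all protein-coding genes. Both intervals hold the share of all genes. Only the untreated library had summits at BTG2 and CCNG1, and only the etoposide library had one at TP53INP1. Over all protein-coding genes 13.5% had summits in the untreated library alone and 4.05% in the etoposide library alone. The other 7 genes had summits in both libraries, and each of these had at least 1 place listed in both. No peak counted for more than 1 of the genes.

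**Figure D1:**
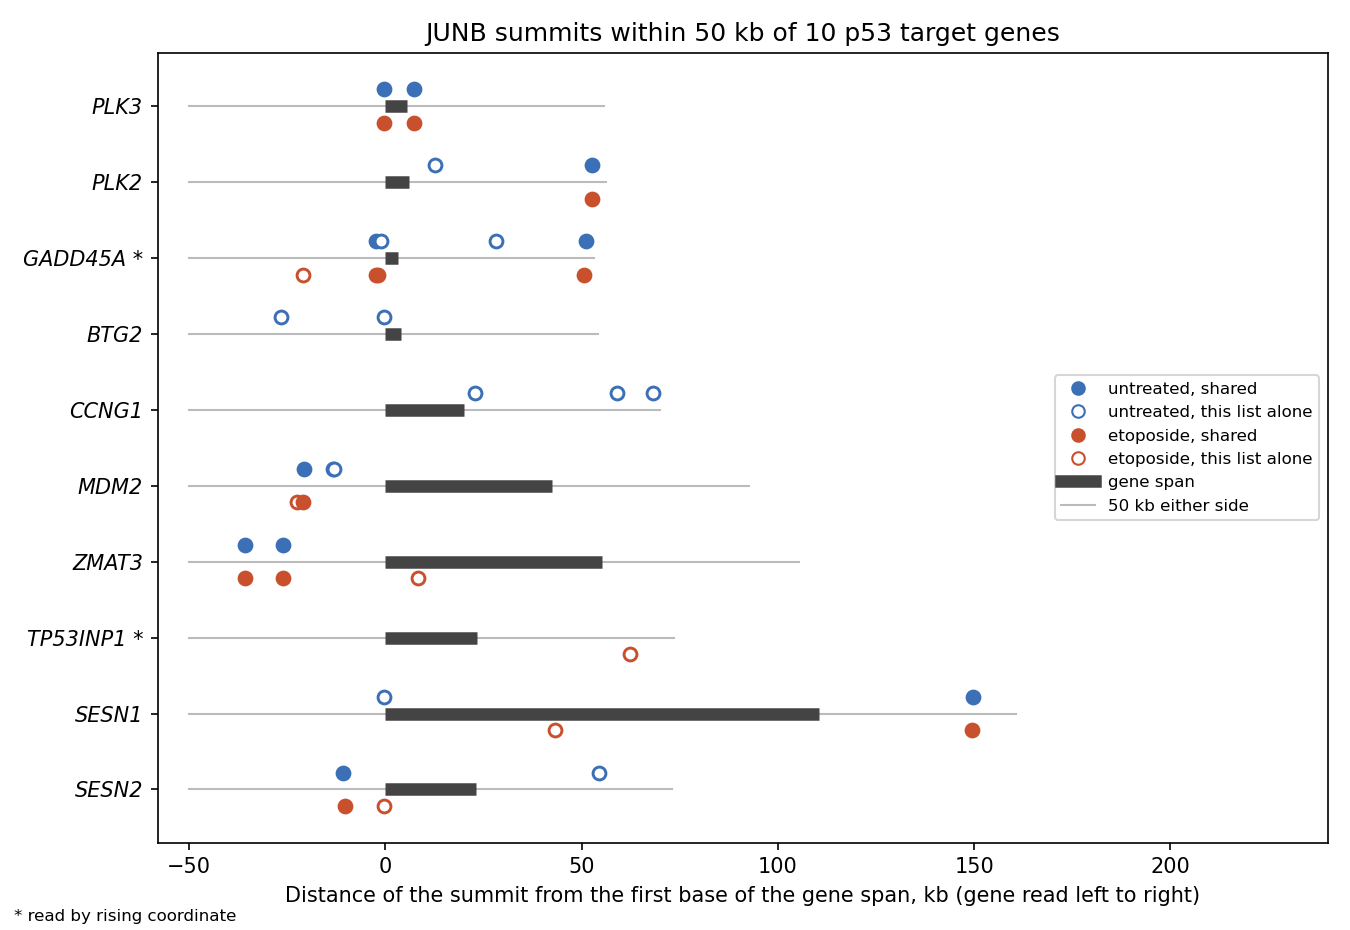
Positions of JUNB summits (circles) around each of the 10 genes, in kb from the first base of the gene span, with the gene as a dark bar and the 50 kb on either side as a thin line. Filled circles are peaks listed in both libraries and open circles are peaks of 1 list; PLK3 has the same 2 places in both libraries, BTG2 and CCNG1 have open untreated circles alone, and 2 of the 39 summits lie inside 1 of the 10 genes.

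Peaks of the 2 lists that overlapped by 1 bp or more were taken as shared. Of the 22 untreated peaks 10 were shared, 45.5% (24.4% to 67.8%), against 51.0% of all untreated peaks. Of the 17 etoposide peaks 11 were shared, 64.7% (38.3% to 85.8%), against 64.8% of all etoposide peaks. Overlapping peaks joined into 28 places, of which both lists held 10 (35.7%), the untreated list alone 12 (42.9%) and the etoposide list alone 6 (21.4%). The 41170 places of the whole series divided into 39.3%, 38.7% and 22%, in the same order. The shares at these genes were near those of the genome.

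Most of the peaks were away from the gene itself, and so was most of the span searched. It took in 50 kb on either side of genes with a median length of 21.5 kb. Of the 39 peaks of both lists, 2 had a summit inside the gene, 5 within 1 kb outside it and 32 farther off, of which 24 were beyond 10 kb. The nearest protein-coding gene was another gene for 17 of the 39. The same shares for peaks around all protein-coding genes were not worked out, so these counts are description only. The number of untreated peaks per gene had a median of 2 and ran from 0 to 4, where the median of all protein-coding genes was 2. For etoposide the median was also 2, again from 0 to 4, where that of all protein-coding genes was 1. The means were closer, 2.2 untreated and 1.7 etoposide peaks per gene, against 2.34 and 1.65 over all protein-coding genes. The outermost peaks inside the 50 kb window were the untreated one 48.1 kb from CCNG1, with 19 fragments at the summit, and that 48.0 kb from GADD45A, with 22. The first beyond it were an etoposide peak 58.0 kb from CCNG1 with 10 fragments and an untreated peak 58.4 kb from GADD45A with 8.

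Strength is given below as the fragments that pile up at the summit, solved from the authors' fold and p, with a 95% Poisson interval that covers counting error only. The rank of a peak is by the authors' -log10 q within its own list, where 1 is the strongest. Untreated peaks near the genes had a median of 14 fragments (7 to 55) and the whole list a median of 15. Etoposide peaks near the genes had a median of 10 (6 to 42) and the whole list a median of 13. Among the 10000 strongest peaks of a list were 6 of the 22 untreated peaks (27.3%, against 30.8% of the list) and 4 of the 17 etoposide peaks (23.5%, against 39.1%).

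**Figure D2:**
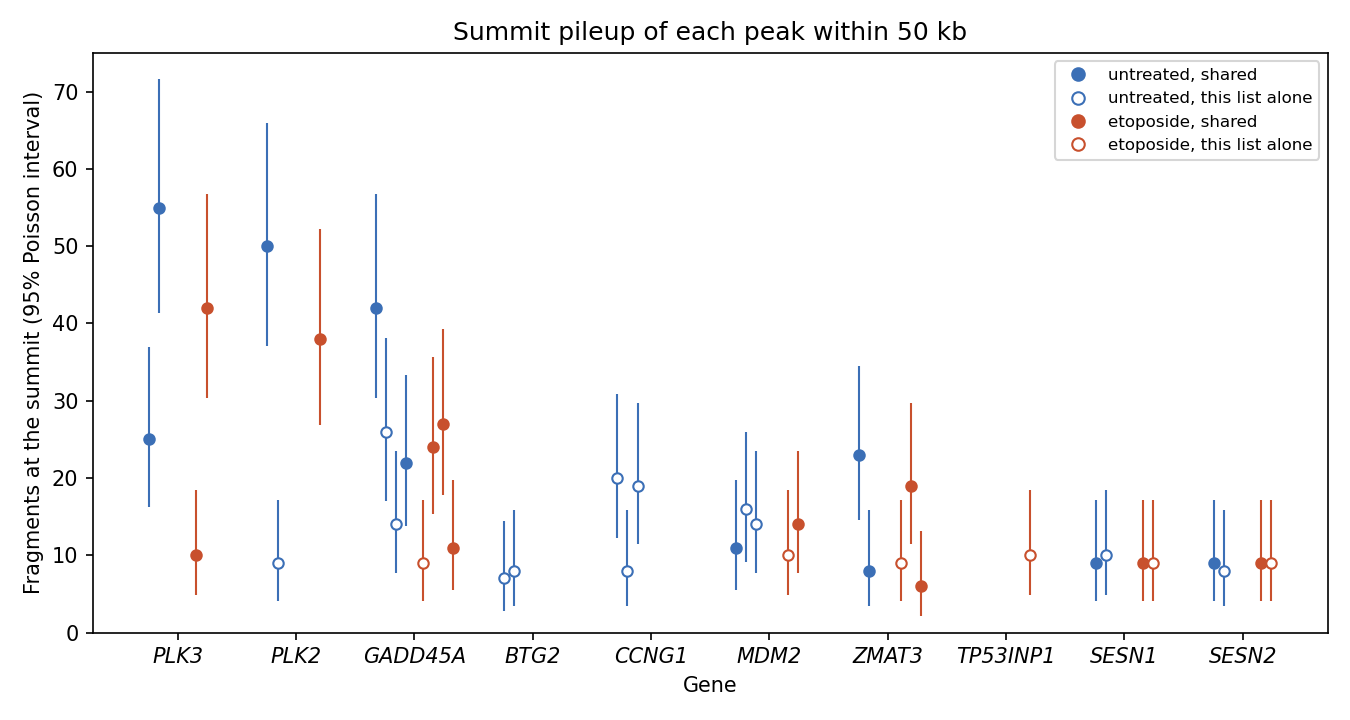
Fragments at the summit of every peak within 50 kb of each gene, with 95% Poisson intervals, blue for untreated and orange for etoposide, filled for shared peaks and open for peaks of 1 list. The highest values are at PLK3 (55 and 42), PLK2 (50 and 38) and GADD45A (42 untreated), and all open etoposide points are at 9 or 10.

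The polo-like kinases held the strongest peaks. PLK3 (chromosome 1, 44800377 to 44805990) encodes a stress-activated kinase of the polo family. It had 2 peaks in each library, at the same 2 places. The place beyond the end of the gene, with summits 7.32 and 7.30 kb past the gene start, ran from 44807137 to 44808115 in the untreated list and from 44807531 to 44807815 in the etoposide list. It had 55 fragments in the untreated library (41.4 to 71.6, rank 374) and 42 in the etoposide library (30.3 to 56.8, rank 206), the strongest 1.15% and 0.8% of their lists, and its nearest gene was DYNLT4, 0.344 and 0.329 kb away.

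The other PLK3 place was at the gene start and was the only start with a peak in both libraries among the 8 genes whose start was matched. The untreated peak (44799910 to 44800197) had its summit 0.281 kb before the start, with 25 fragments (16.2 to 36.9) and rank 2479. The etoposide peak (44799971 to 44800159) had its summit 0.363 kb before the start, with 10 fragments (4.8 to 18.4) and rank 18560. The etoposide value was 0.4 times the untreated one at the start (0.171 to 0.862) and 0.764 times (0.499 to 1.16) at the place beyond the gene. The fragment numbers were not scaled for depth, and the median ratio over all shared pairs of the series was 0.769. A ratio under 1 is therefore not by itself a loss of occupancy. The intervals of the 2 PLK3 ratios overlap, and whether the ratios differed was not tested. The start region is printed because it is the stretch that both peaks reach into, although both summits lie before it. The RefSeq promoter sequence (GRCh38.p14, chr1:44800127-44800426, plus strand) runs from 250 bases before the start to 50 bases from it, and capitals mark the 71 bases inside the untreated peak, of which the etoposide peak covers 33.
PLK3: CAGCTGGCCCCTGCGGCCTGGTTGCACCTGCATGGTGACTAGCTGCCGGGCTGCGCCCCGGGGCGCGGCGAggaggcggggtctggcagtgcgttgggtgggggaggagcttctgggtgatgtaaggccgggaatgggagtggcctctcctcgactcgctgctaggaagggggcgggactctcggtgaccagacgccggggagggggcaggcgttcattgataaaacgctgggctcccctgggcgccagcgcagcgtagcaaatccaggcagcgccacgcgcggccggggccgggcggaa

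PLK2 (chromosome 5, 58453982 to 58460086, minus strand) encodes a kinase known for its part in centriole duplication and as an early stress-induced gene. Its strong place lay 46.6 kb beyond the gene's end, with PLK2 as the nearest protein-coding gene. The untreated peak (58406986 to 58407511) had 50 fragments (37.1 to 65.9, rank 386) and the etoposide peak (58407010 to 58407488) had 38 (26.9 to 52.2, rank 450). A weak untreated peak 6.60 kb beyond the gene's end had 9 fragments and no etoposide counterpart. Neither library had a summit within 1 kb of the PLK2 start.

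GADD45A (chromosome 1, 67685201 to 67688334) encodes a small protein that binds PCNA and CDK1 and takes part in the G2 checkpoint and DNA repair. It had the most peaks of the 10 genes, 4 in each library. Of the places in both lists the nearest was on the lower-coordinate side of the gene, where the untreated library had 1 broad peak of 918 bp (67682788 to 67683705) with 42 fragments (30.3 to 56.8), 2.28 kb from the gene. The etoposide library had 2 narrow peaks within that stretch, of 210 bp (67682809 to 67683018) with 24 fragments and of 235 bp (67683216 to 67683450) with 27. A further untreated peak, nearer at 1.19 kb from the gene (67683834 to 67684143) had 26 fragments and no counterpart.

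The local background that the peak caller set against these summits was high. It was 6.99 and 7.05 fragments in the untreated library, where the median of the list was 1.27 and 0.316% of peaks had as much. In the etoposide library it was 3.8 and 3.91, against a median of 0.907, and 0.808% of peaks had as much. The authors' fold at the untreated summits was therefore only 5.38 and 3.35, although the fragment numbers were among the highest at these genes. The other GADD45A peaks were farther off. A shared place inside GNG12, the gene of a G protein gamma subunit, had 22 untreated fragments 48.0 kb away and 11 etoposide fragments 47.6 kb away, with summits 416 bp apart. Another untreated peak inside GNG12 (14 fragments) and an etoposide peak 21.1 kb from GADD45A on the other side (9 fragments) had no counterpart.

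The arrest genes BTG2 and CCNG1 had untreated peaks alone. BTG2 (chromosome 1, 203305519 to 203309602) encodes an antiproliferative protein that recruits the CCR4-NOT deadenylase to messenger RNAs. Its peak at the gene start (203305013 to 203305292, summit 0.412 kb before the start) had 8 fragments (3.45 to 15.8, rank 27689), and a peak 26.5 kb before the start had 7 (2.81 to 14.4, rank 30771). Both were near the lower end of the untreated list, where the smallest number of fragments was 5. The window at the start does not hold the summit. It is shown with the 24 bases inside the untreated peak in capitals (GRCh38.p14, chr1:203305269-203305568, plus strand).
BTG2: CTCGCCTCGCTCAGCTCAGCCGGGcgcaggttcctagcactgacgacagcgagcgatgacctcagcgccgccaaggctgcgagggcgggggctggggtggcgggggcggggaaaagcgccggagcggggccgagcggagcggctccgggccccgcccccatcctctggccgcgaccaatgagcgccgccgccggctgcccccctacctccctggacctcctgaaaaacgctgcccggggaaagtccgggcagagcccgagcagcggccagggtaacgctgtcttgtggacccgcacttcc

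CCNG1 (chromosome 5, 163437571 to 163457640) encodes cyclin G1, an atypical cyclin that brings the phosphatase PP2A to MDM2. All 3 of its untreated peaks lay beyond the gene's end and were nearer to other genes. The closest (163460173 to 163460388) was 2.65 kb from CCNG1 but 0.185 kb from NUDCD2 and had 20 fragments (12.2 to 30.9, rank 10839). The others had 8 fragments, nearest to HMMR, and 19 fragments (11.4 to 29.7, rank 13353), inside MAT2B. Of the single-library peaks here only 1 at GADD45A had more fragments than the 20 and 19 of these CCNG1 peaks. That untreated GADD45A peak had 26 fragments, but its rank by -log10 q was lower, 27561. The etoposide list had no peak within 50 kb of CCNG1.

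MDM2 (chromosome 12, 68808172 to 68850686) had peaks only before its first start. A shared place 20.8 kb before the start in the untreated list (68787270 to 68787710, 11 fragments, 5.49 to 19.7) and 20.9 kb before it in the etoposide list (68787243 to 68787451, 14 fragments, 7.65 to 23.5) was nearest to SLC35E3. It was the only shared place of these genes with more etoposide than untreated fragments, and the intervals of the 2 values overlap. Neighbouring untreated peaks at 68794812 to 68795025 (16 fragments) and 68795127 to 68795356 (14 fragments), 13238 and 12955 bases before the start, had no counterpart, and neither did an etoposide peak 22.6 kb before it (10 fragments).

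MDM2 is transcribed from a constitutive promoter and from a p53-responsive one within the gene. One of the annotated starts lies 0.845 kb after the first, and the window around it holds the AP-1 letters TGACTCA, 118 bases before that start. No peak of either list overlapped any of the annotated MDM2 start windows. The internal window is shown with those letters alone in capitals, and p53 elements are not marked (GRCh38.p14, chr12:68808767-68809066, plus strand).
MDM2: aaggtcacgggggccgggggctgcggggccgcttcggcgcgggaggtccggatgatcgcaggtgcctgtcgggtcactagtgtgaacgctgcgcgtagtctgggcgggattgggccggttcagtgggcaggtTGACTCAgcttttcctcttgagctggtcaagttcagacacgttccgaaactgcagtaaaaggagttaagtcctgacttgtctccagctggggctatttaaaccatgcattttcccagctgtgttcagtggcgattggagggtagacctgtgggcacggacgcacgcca

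The sestrins are stress-induced proteins that restrain the growth kinase complex mTORC1, and SESN2 also senses leucine. All their peaks were weak, with 8 to 10 fragments. SESN2 (chromosome 1, 28259518 to 28282491) had an etoposide peak at its start (28259034 to 28259453, summit 0.360 kb before it) with 9 fragments (4.12 to 17.1, rank 17827) and no untreated counterpart. A shared place about as strong lay 10.7 kb before the start in the untreated list (28248723 to 28249109) and 10.2 kb in the etoposide list (28248954 to 28249381), with 9 fragments in either, but its summits were 558 bp apart. The untreated summit of that place was slightly nearer to ATP5IF1 (10692 bp) than to SESN2 (10726 bp), and the etoposide summit was nearest to SESN2. An untreated peak 31.5 kb beyond the gene's end had 8 fragments and was nearest to MED18, 15.0 kb away. The SESN2 start is printed because it is the only one of these genes with a peak in the etoposide list alone. The printed window does not hold the summit, and the 186 bases inside that peak are in capitals (GRCh38.p14, chr1:28259268-28259567, plus strand).
SESN2: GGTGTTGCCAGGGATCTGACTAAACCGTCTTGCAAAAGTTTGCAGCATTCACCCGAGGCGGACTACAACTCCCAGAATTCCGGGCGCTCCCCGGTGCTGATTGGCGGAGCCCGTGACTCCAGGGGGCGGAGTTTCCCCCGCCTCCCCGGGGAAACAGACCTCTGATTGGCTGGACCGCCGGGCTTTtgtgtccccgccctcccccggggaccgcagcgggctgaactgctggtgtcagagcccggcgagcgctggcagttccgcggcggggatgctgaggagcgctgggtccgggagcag

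SESN1 (chromosome 6, 108984309 to 109094846, minus strand) had an untreated peak at its outermost start (109095161 to 109095362, summit 0.359 kb before it) with 10 fragments (4.8 to 18.4), which also lay inside CEP57L1, and no etoposide counterpart. An etoposide peak without counterpart lay within SESN1, in the stretch where ARMC2 overlaps it (109051383 to 109051571), with 9 fragments. A shared place inside ARMC2, 39.2 and 39.0 kb from SESN1, had 9 fragments in both libraries. Each single-library peak of the sestrin genes had 10 fragments or fewer.

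ZMAT3 (chromosome 3, 179017223 to 179072513, minus strand) encodes a zinc-finger protein that binds RNA and controls splicing and messenger RNA stability. It had shared places 26.0 and 35.8 kb before the gene, with ZMAT3 as the nearest protein-coding gene. The first (179098425 to 179098898 untreated, 179098454 to 179098885 etoposide) had 23 fragments (14.6 to 34.5, rank 4749) and 19 (11.4 to 29.7, rank 4356), with summits 31 bp apart. The second had 8 and 6, close to the lower end of either list. The etoposide library had a further peak within the gene (179064161 to 179064349), 5.12 kb after the nearest annotated start, with 9 fragments.

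TP53INP1 (chromosome 8, 94925972 to 94949378) encodes a nuclear stress protein that also takes part in autophagy. It had no untreated summit within 50 kb. The etoposide library had 1 peak 38.9 kb away (94988154 to 94988342, 10 fragments, 4.8 to 18.4), inside NDUFAF6.

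The shared places allow fragment numbers to be set side by side, without scaling for depth. Over the 16185 pairs of the series in which each peak was the other's closest counterpart, the etoposide number was a median of 0.769 times the untreated one (quartiles 0.619 and 1). Of the 11 overlapping pairs near these genes 10 met the same rule, all but that of the broad GADD45A peak with the etoposide peak of 27 fragments, and they had a median of 0.762. The etoposide number was lower in 7 of the 10, equal in 2 and higher in 1, and it was lower in 74.1% of all pairs. The lowest ratio, 0.4 at the PLK3 start, lay under the 5th percentile of all pairs, 0.444, and 2.59% of pairs were as low or lower. This pair was singled out after its value was seen. At GADD45A the ratios were 0.571 (0.331 to 0.966) and 0.643 (0.381 to 1.07) for the etoposide peaks that fall in the broad untreated peak and 0.5 (0.219 to 1.08) for the place inside GNG12. The intervals of all 11 overlapping pairs held the median of all pairs.

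**Figure D3:**
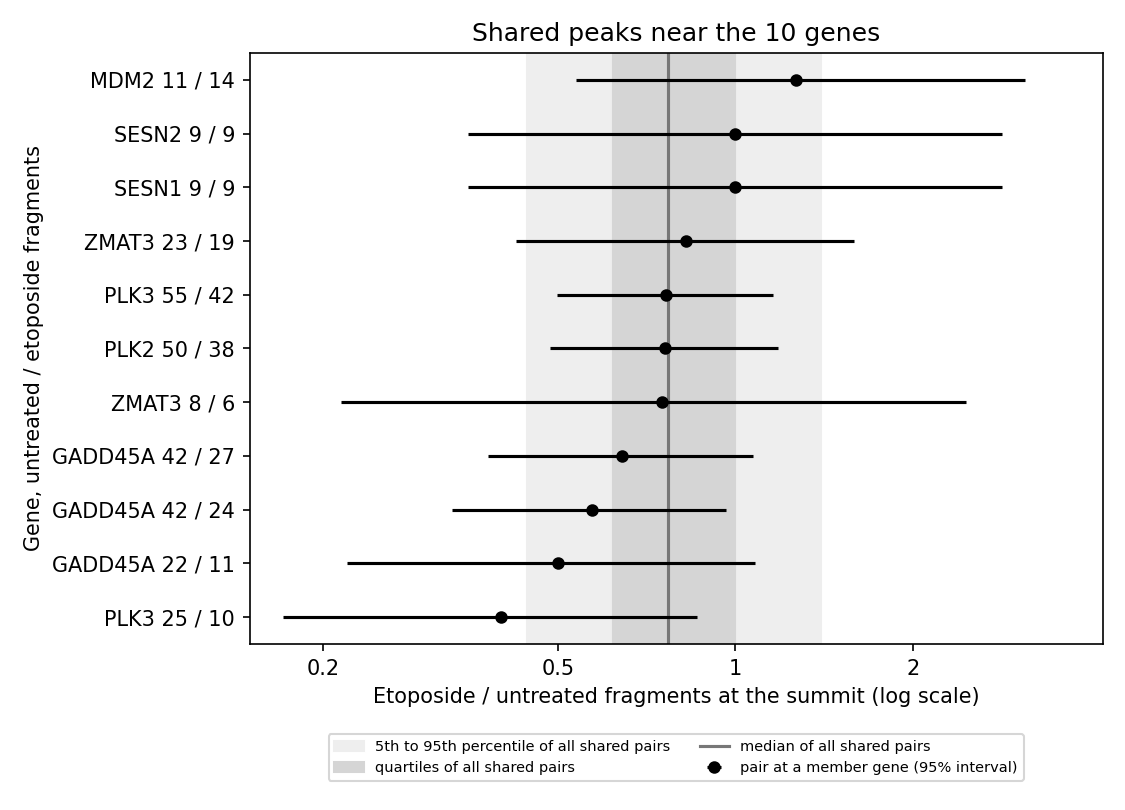
Ratio of etoposide to untreated fragments at the summit (log axis) for the 11 overlapping pairs near the genes, each labelled with its gene and its untreated and etoposide numbers, with 95% intervals from counting alone. The band shows the quartiles of all 16185 pairs, 0.619 to 1, the paler band their 5th to 95th percentile, 0.444 to 1.4, and the line their median, 0.769; every interval crosses the line.

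Peaks of 1 list were mostly weak ones. The 12 untreated peaks without counterpart had a median of 12 fragments (7 to 26) and the 10 shared ones a median of 22.5 (8 to 55). The 6 etoposide peaks without counterpart had a median of 9 (9 to 10) and the 11 shared ones a median of 14 (6 to 42). The whole lists had medians of 12 against 19 and of 10 against 14. Of the 12 untreated peaks without counterpart 5 had the smallest width of their list, 202 bp, and 3 of the 6 etoposide ones had the smallest width of theirs, 189 bp. Over the whole lists 20.5% and 27.8% of peaks without counterpart had it. The part of depth in these absences was not tested.

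A start in the RefSeq promoter table was matched for 8 of the 10 genes, all but GADD45A and TP53INP1. An untreated summit lay within 1 kb of a start at 3 of the 8 (BTG2, PLK3 and SESN1), and an etoposide summit at 2 (PLK3 and SESN2). Over 15812 protein-coding genes with a start in the table the shares were 17.5% and 6.61%. With 8 genes these numbers are too small to set against the background.

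The windows from 250 bases before to 50 bases after the starts, 15 in all for the 8 genes, were searched on both strands. The AP-1 letters TGANTCA were in 2 of the 15, both of them overlapping MDM2 windows around the internal start shown above, and in 7.71% of all 35116 windows of the table. The related letters TGACGTCA, the CRE form, were in none, against 1.85%. The p53 half-site was searched as an exact match to its consensus with no mismatch, and p53 elements often depart from that consensus, so windows without a match are not shown to lack p53 elements. A half-site matched in this way was in 1 window of PLK2 and 1 of SESN1, against 6.63% of all windows, and a full site of 2 half-sites up to 13 bases apart was in none, against 0.0285%. Outside these windows the sequence under the peaks was not used here.

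The window around the gene set how many of the genes had a summit. Inside the gene or within 1 kb of it, 3 had one in the untreated library (39.5% of all protein-coding genes did) and 4 in the etoposide library (30.3%). Within 10 kb the numbers were 6 (49.6%) and 5 (38.9%), and within 100 kb they were 9 (83.2%) and 10 (76.9%). At 100 kb BTG2 and CCNG1 had etoposide summits as well, and TP53INP1 still had none in the untreated library.

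**Figure D4:**
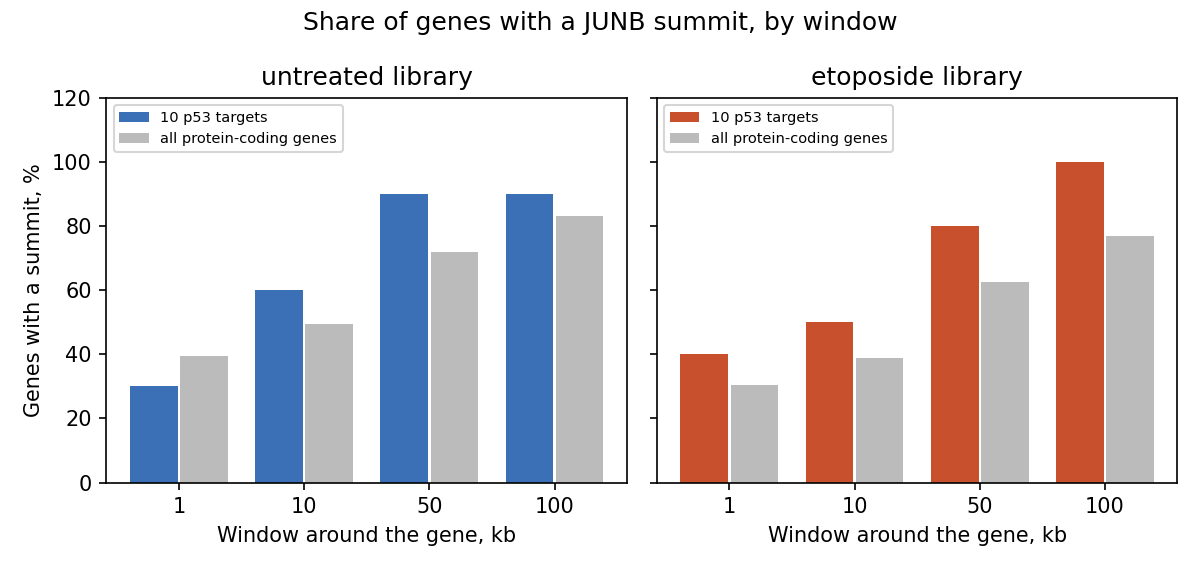
Share of the 10 genes (coloured bars) and of all protein-coding genes (grey bars) with a JUNB summit inside the gene or within 1, 10, 50 or 100 kb of it, for the untreated library on the left and the etoposide library on the right. At 50 kb the bars stand at 90.0% and 72.0% for untreated and at 80% and 62.6% for etoposide; 1 gene is 10 percentage points of a coloured bar.

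The rest of the pathway was read in the same 50 kb window, where the shares of all protein-coding genes were 72.0% for untreated summits, 62.6% for etoposide summits and 13.5% for untreated summits alone. The lists used here were chosen with earlier results of these data known, and their shares were not tested against those of all genes. Of 24 other p53 targets, 23 had an untreated summit (95.8%) and 20 an etoposide summit (83.3%). FDXR, POLH and TRIAP1 had untreated summits alone, none had etoposide summits alone, and TIGAR had neither. Of 10 genes that act on p53, 10 had an untreated and 9 an etoposide summit, and TP53BP1, a chromatin protein at DNA breaks, had untreated summits alone. At the starts of those 10 genes, of which 9 were in the promoter table, untreated summits lay at MDM4, ATM, CHEK2 and USP7, and no etoposide summit did, where 17.5% and 6.61% of all protein-coding genes in the table had one. Of the 24 other targets 20 were in the table, with untreated summits at the starts of FDXR, BBC3 and FBXW7 and an etoposide summit at that of BBC3.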

How the data were processed

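The data were 2 narrowPeak lists, 1 per library. Bowtie2, MACS2 and the builds hg38 and mm10 are named in the submitters' processing notes, without versions or roles, and the control and settings are not given in the sources used here. Contig names were those of GRCh38. The deposited fold is the ratio of summit signal to local background, and the summit's -log10 p, its -log10 q and a score of 10 times -log10 q are deposited by the authors too. Peaks on chromosomes 1 to 22 and X were kept, and positions are counted from 1. Genes and starts came from RefSeq GRCh38.p14.

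The fragments at a summit (k) and the local background (b) were solved from fold = (k + 1)/(b + 1) and the Poisson tail above k. This matched the deposited -log10 p within 0.001 for 100% of peaks of either list. It was also tested on simulated peaks made with the same formulas, which checks the solving alone and not how the deposited values were made. Poisson and binomial intervals are exact at 95%, the interval of a ratio comes from the binomial share, and all cover counting error only. Python 3.11.15 and scipy 1.17.1 were used. The members and lists were chosen with earlier results of these data known. All 10 genes were named by rule, and other genes came from fixed lists or were nearest to a peak. A gene planned for the pathway lists was left out and is not reported here.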

Additional observations from a re-analysis of the deposited data

How the results depend on the processing

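No paired analysis was possible because each condition had 1 library. All alternatives were planned. The counts of genes and peaks followed the window and the threshold by construction. In the untreated library the number of genes with a summit was 3 inside the gene or within 1 kb and 4 among the 10000 strongest peaks of each list. The number of untreated peaks was 8 within 10 kb, 35 within 100 kb, 3 inside or within 1 kb, 6 among the 10000 strongest and 11 where the member was the nearest protein-coding gene. In the etoposide library the number of genes was 5 within 10 kb, 4 inside or within 1 kb and 4 among the 10000 strongest. The number of etoposide peaks was 7 within 10 kb, 26 within 100 kb, 4 inside or within 1 kb, 4 among the 10000 strongest and 11 by nearest gene. The shared share of etoposide peaks was 25% inside or within 1 kb (1 of 4), 100% among the 10000 strongest (4 of 4) and 35.3% when at least 50% of both peaks had to be in common (6 of 17). The other 22 of 40 alternative values stayed within 1.5 times the main number or within the interval of the main share. The depth of the libraries is not given in the sources used here, and its part in absences from a list was not tested.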

Other observations

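Paralogues of the genes were looked at in the same window. Of 10 (BTG1, CCNG2, GADD45B, GADD45G, MDM4, PLK1, PLK4, PLK5, SESN3 and TP53INP2), 9 had an untreated summit within 50 kb and 8 an etoposide summit, where 72.0% and 62.6% of all protein-coding genes had one. CCNG2 had an untreated summit and no etoposide summit, as did 13.5% of all protein-coding genes. GADD45G had neither, and GADD45B had 4 untreated and 2 etoposide summits. Of the 9 paralogues with a matched start, 1 had an untreated summit there and 1 an etoposide summit. MDM4, which is also among the genes that act on p53 described above, had the untreated summit at its start and no etoposide one there. PLK4, the kinase that starts centriole duplication, had the etoposide summit at its start and no untreated one there. Among all protein-coding genes with a matched start, the shares were 17.5% for untreated and 6.61% for etoposide summits. With 9 genes these counts are too small to set against those shares.

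The strongest place near MDM2 lay beyond the window. It was listed in both libraries 74.4 kb from the gene, with 42 fragments and rank 846 in the untreated list and 45 fragments and rank 127 in the etoposide list. A place 93.4 kb from BTG2 in the untreated list (22 fragments) and 93.3 kb in the etoposide list (12 fragments) was also shared. Both were picked out after their values were seen.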
